A study of Mus musculus with 2 samples.

Results

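Colony-stimulating factors and their receptors were followed across the cell types of mouse brain in single-cell RNA libraries of a study of brain metastasis in triple-negative breast cancer. The 9 genes were taken by symbol from the deposited gene lists and are the ligands Csf1, Il34, Csf2 and Csf3 and the receptors Csf1r, Csf2ra, Csf2rb, Csf3r and Flt3, among 29217 genes listed in either library. All 9 were listed in the titled positive library and 8 in the titled control library, whose list lacks Csf2. There were 2 libraries, 1 per group, both from brain tissue of the Balb/c strain with the typing label TNBC (triple-negative breast cancer), and no age, sex or number of animals is given in the labels. The treatment labels contradict the titles: the library titled control carries the label with metastasis of 4T1 cells, a line derived from a mouse mammary tumour, and the library titled positive the label without. The libraries are therefore named by their titles, and no direction with or without metastasis is drawn. A single library per group leaves no replicate check, so no difference was tested and every interval covers counting error only.

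CSF-1 and interleukin 34 both act on the receptor Csf1r, on which microglia and most tissue macrophages depend for survival. GM-CSF, encoded by Csf2, acts on monocytes, macrophages and granulocytes through a specific alpha chain (Csf2ra) and a signalling beta chain (Csf2rb) that is shared with the receptors for interleukins 3 and 5. G-CSF, encoded by Csf3, drives the production and release of neutrophils through Csf3r, and Flt3 is the receptor on which dendritic cells and their precursors rely. In healthy brain CSF-1 is known from glia and interleukin 34 mainly from neurons.

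Cells were grouped by markers that hold none of the 9 genes, and class names carry "like" because no annotation by the authors was used. The titled control library kept 9806 cells (median 4137 UMIs, unique molecular identifiers that each count 1 captured RNA molecule) and the titled positive library 10537 cells (median 7288 UMIs). Carcinoma-like cells, with Epcam and keratin RNA, were 5892 cells of the titled positive library, and 1 titled control cell without a UMI of any of the 11 carcinoma markers was grouped with them. Microglia-like cells numbered 2365 (titled control) and 647 (titled positive), monocyte or macrophage-like cells 220 and 2233, oligodendrocyte-like cells 3510 and 838, and neutrophil-like cells 11 and 259. Pericyte-like cells (177) were named only in the titled control library, and neuron-like cells were few (66 and 10), which bears on Il34. The libraries shared 149 cell barcodes. Levels are in CPM, the UMIs of a gene summed over a class and scaled to a common total of UMIs per class, with 95% Poisson intervals, so they compare 1 gene between classes and not the genes with each other.

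Promoter sequence is shown for 3 members whose RNA marks a source or a receiver: Csf1, the ligand of glia and vessels, and Csf2ra and Csf3r, receptors of myeloid cells. RefSeq promoters (GRCm38.p6) matched 5 of the 9 members, where Csf1r had been left out of the matching and the motif search beforehand. The 200 bases before the start are printed 5′ to 3′. Capitals mark an NF-kappaB motif in Csf1 (chr3:107760470-107760669, minus strand) and the letters GAGGAA, the core bound by the myeloid factor PU.1, in Csf2ra (chr19:61228419-61228618, minus strand) and Csf3r (chr4:126024459-126024658, plus strand).
Csf1: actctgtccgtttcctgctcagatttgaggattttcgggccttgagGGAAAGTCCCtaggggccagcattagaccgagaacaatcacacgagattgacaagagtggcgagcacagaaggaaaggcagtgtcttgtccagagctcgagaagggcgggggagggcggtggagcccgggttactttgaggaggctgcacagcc
Csf2ra: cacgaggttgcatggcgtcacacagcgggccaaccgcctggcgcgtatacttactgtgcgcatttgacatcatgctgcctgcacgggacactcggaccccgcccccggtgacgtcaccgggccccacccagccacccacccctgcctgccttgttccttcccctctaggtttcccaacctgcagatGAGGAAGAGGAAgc
Csf3r: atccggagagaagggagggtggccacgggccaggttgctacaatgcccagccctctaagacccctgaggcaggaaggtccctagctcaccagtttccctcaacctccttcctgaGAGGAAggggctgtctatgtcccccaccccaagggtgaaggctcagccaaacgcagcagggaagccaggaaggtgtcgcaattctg

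Both motifs were searched on both strands of 300 bases around each start, 250 before and 50 after. Csf2ra held GAGGAA at 2 adjoining places, with first bases 14 and 8 before the RefSeq start, and Csf3r held it once, 86 before that start. In GENCODE M21 the Csf3r gene begins at chr4:126024550 and the Csf2ra gene at chr19:61228429, both inside the printed stretches. The Csf3r match and the nearer Csf2ra match thus lie within the genes as annotated there. GAGGAA occurred in 28.3% of 32851 promoters of that length and the NF-kappaB motif in 8.46%, so each match is a description and not a binding site. The NF-kappaB match of Csf1 began 154 before the start, Csf3r had another 129 before its start, and the promoters of Csf2 and Flt3 matched neither motif.

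Among the ligands, Csf3 RNA lay almost wholly in carcinoma-like cells. They held 9445 of the 10162 Csf3 UMIs of the titled positive library (92.9%, against 69.2% of all its UMIs), which is 145 CPM (142 to 148). A UMI of Csf3 was found in 50.9% of carcinoma-like cells (49.6 to 52.2%) and in 11.9% of them after thinning each cell to 1000 UMIs. In the titled control library Csf3 had 4 UMIs, all in 1 monocyte or macrophage-like cell.

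Csf3 was uneven among carcinoma-like cells. The 10% of cells with the most Csf3 UMIs (590 cells) held 56.2% of them, 534 cells (9.06%) had at least 5, and the highest cell had 59. By cluster the level was 200 CPM (193 to 208) in cluster 29, with Slpi and Spp1 among its leading genes. The level was 156 CPM (147 to 166) in cluster 27, with Ltf and Lcn2, which encode iron-binding and iron-sequestering proteins. It was 131 CPM (126 to 136) in the cycling cluster 26, with Cdk1 and Top2a, and 120 CPM (116 to 125) in cluster 11, led by the keratins Krt18 and Krt8. The intervals of the 4 clusters did not overlap, and the share of cells with a Csf3 UMI followed another order, with 55.8% in cluster 26, 52.9% in cluster 29 and 46.1% in cluster 11.

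**Figure D1:**
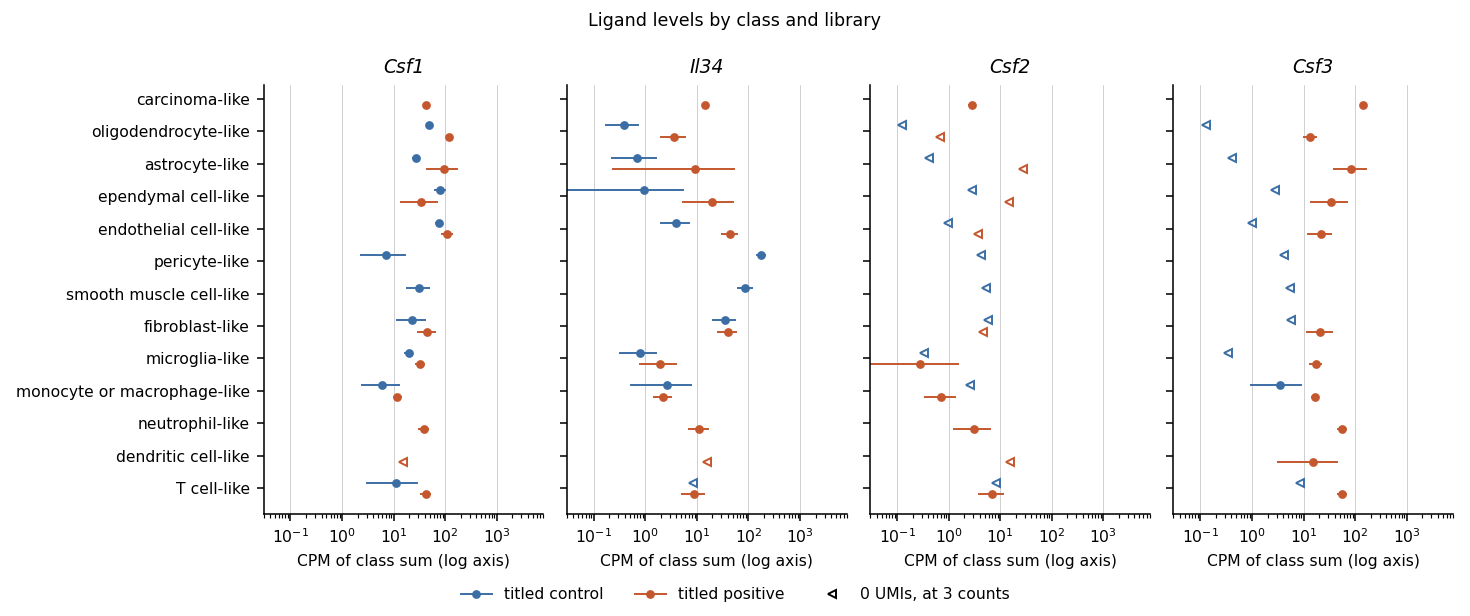
UMIs of the 4 ligands in CPM of the class sum (log axis), blue for the titled control and orange for the titled positive library. Classes with at least 20 cells are drawn, except neuron-like and choroid plexus cell-like cells, which were left out. Bars are 95% Poisson intervals and open triangles mark 0 UMIs, drawn at the level of 3 counts. Csf3 is highest in carcinoma-like cells (145 CPM), Il34 in titled control pericyte-like cells (176 CPM) and Csf1 in titled positive oligodendrocyte-like cells (120 CPM).

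Every other titled positive class of at least 30 cells also carried some Csf3, between 13.5 CPM in oligodendrocyte-like cells and 56.4 CPM in neutrophil-like cells. Carcinoma markers measured in the same cells are given beside it. In T cell-like cells Csf3 stood at 38.6% of its carcinoma-like level and the sum of 11 carcinoma markers at 40.7%, and in neutrophil-like cells at 39.0% and 49.3%. In endothelial cell-like cells the values were 14.8% and 13.5%, in microglia-like cells 11.8% and 10.9%, in monocyte or macrophage-like cells 11.6% and 10.7%, and in oligodendrocyte-like cells 9.32% and 10.7%. Ependymal cell-like cells had 23.5% and 12.9%, from 7 UMIs of Csf3. In most of these classes Csf3 was thus near the ratio to epithelial RNA that carcinoma-like cells show. A Csf3 UMI was found in 5.73% of oligodendrocyte-like cells (median 4788 UMIs), set against 50.9% of carcinoma-like cells (median 10231.5 UMIs).

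**Figure D2:**
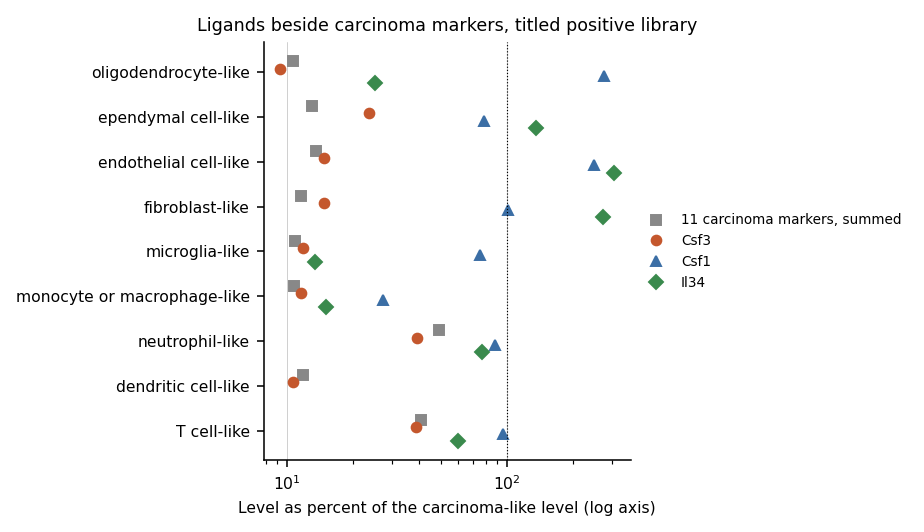
Level of Csf3, Csf1 and Il34 and of 11 summed carcinoma markers in each titled positive class of at least 30 cells, as a percent of the level in carcinoma-like cells (log axis; dotted line, 100%). Csf3 lies near the markers in most classes (38.6% against 40.7% in T cell-like cells), while Csf1 passes 100% in oligodendrocyte-like (276%) and endothelial cell-like cells (249.3%); Csf1 and Il34 had 0 UMIs in dendritic cell-like cells and have no symbol there.

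Csf2 was scarce, and in the titled positive library most of its UMIs lay in carcinoma-like cells. Carcinoma-like cells held 185 of its 218 UMIs, at 2.84 CPM (2.44 to 3.28) and in 2.55% of cells. T cell-like cells, whose leading genes include the granzymes Gzma and Gzmb, held 15 UMIs at 6.81 CPM (3.81 to 11.2) and in 3.75% of cells. That is 240.1% of the carcinoma-like level where their carcinoma markers stood at 40.7%. With each cell named by its own markers Csf2 was 16.6 CPM in T cell-like cells. Neutrophil-like cells had 7 UMIs at 3.11 CPM (1.25 to 6.41), which is 109.6% of the carcinoma-like level where their carcinoma markers stood at 49.3%. Monocyte or macrophage-like cells had 10 UMIs (0.720 CPM, 25.4% beside 10.7%) and microglia-like cells 1 (9.72% beside 10.9%). Oligodendrocyte-like cells had 0, which allows up to 0.675 CPM at 3 counts. Within the carcinoma-like class Csf2 was 4.38 CPM (2.95 to 6.25) in cluster 27 and 4.20 CPM (3.21 to 5.41) in cluster 29, against 2.18 CPM (1.63 to 2.85) in cluster 11 and 2.13 CPM (1.54 to 2.87) in cluster 26. In the titled control library Csf2 had 0 UMIs, which allows up to 0.0587 CPM over all its kept cells. In its 88 T cell-like cells this allows up to 8.40 CPM, so Csf2 in those cells was not detectable at this depth.

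**Figure D3:**
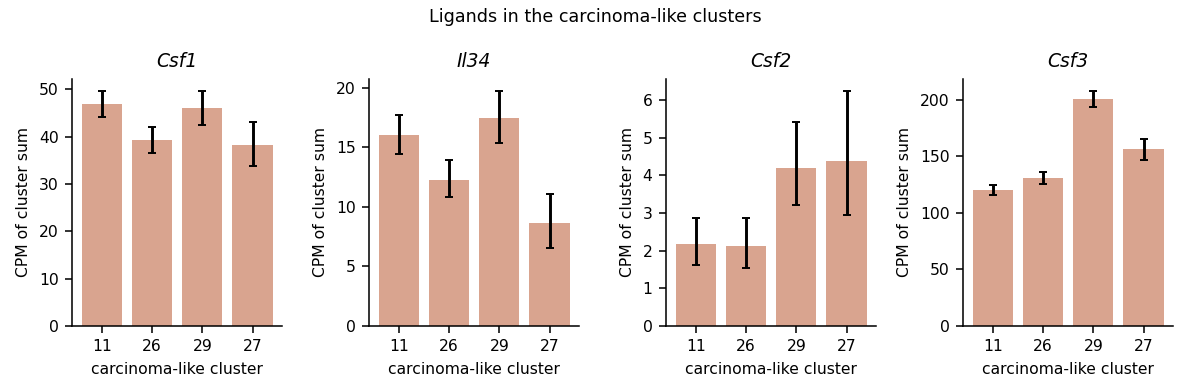
CPM of the cluster sum for the 4 ligands in the 4 carcinoma-like clusters of the titled positive library; bars start at 0 and error bars are 95% Poisson intervals. Csf3 and Csf2 are highest in clusters 29 and 27 (200 and 156 CPM for Csf3), and Il34 is lowest in cluster 27 (8.61 CPM).

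Csf1, the main ligand of Csf1r, had a broad set of sources in which glia and vessels led. In the titled control library its level was 80.6 CPM (64.4 to 99.7) in ependymal cell-like cells, 76.1 CPM (66.6 to 86.6) in endothelial cell-like cells, whose cluster was led by haemoglobin genes ahead of Cldn5, and 49.1 CPM (46.3 to 52.0) in oligodendrocyte-like cells. The mean of per-cell CPM in the endothelial cell-like cells was 50.7. Smooth muscle cell-like cells had 30.7 CPM from 17 UMIs, astrocyte-like cells 27.4 CPM (23.7 to 31.4), fibroblast-like cells 23.0 CPM and microglia-like cells 19.7 CPM (16.9 to 22.8), and monocyte or macrophage-like cells were near the bottom at 6.06 CPM (2.44 to 12.5). The ependymal and endothelial intervals overlapped, and those of endothelial, oligodendrocyte-like, astrocyte-like and microglia-like cells did not. By number of UMIs oligodendrocyte-like cells were the largest source, with 58.6% of the library's 1987 Csf1 UMIs and 46.4% of all its UMIs. Within them Csf1 was 60.6 CPM (56.3 to 65.1) in cluster 5, led by Klk6, and 36.6 CPM (33.1 to 40.3) in cluster 2, led by Opalin.

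In the titled positive library Csf1 was 120 CPM (110 to 131) in oligodendrocyte-like cells, 108 CPM (86.6 to 134) in endothelial cell-like cells and 43.4 CPM (41.9 to 45.1) in carcinoma-like cells. The 5892 carcinoma-like cells nevertheless held 71.1% of the 3988 Csf1 UMIs, close to their 69.2% of all UMIs. A Csf1 UMI was found in 40.6% of titled positive oligodendrocyte-like cells (10.95% thinned to 1000 UMIs) and in 23.4% of titled control ones (4.47% thinned). Dendritic cell-like cells had 0 Csf1 UMIs in 39 cells, which allows up to 15.5 CPM. Among carcinoma-like cells Csf1 varied little, from 38.2 CPM (33.7 to 43.1) in cluster 27 to 46.9 CPM (44.2 to 49.8) in cluster 11. Cells with both Csf3 and Csf1 were 17.6% of the carcinoma-like class, and Csf1 was found in 34.6% of cells with Csf3 and in 29.3% of cells without it, a comparison that cell depth enters.

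Il34 was a gene of mural and connective tissue cells in the titled control library. Pericyte-like cells, which wrap capillaries, held 124 of its 290 UMIs at 176 CPM (146 to 210) and in 42.9% of cells. Of the 177 cells of this class, 138 were in sub-cluster 10.2. Its mean log2 marker ratio was 6.70 for pericyte and 5.10 for endothelial cell, with 9 endothelial markers detected. Another 28 cells were in sub-cluster 10.3, led by haemoglobin genes. Mixed clusters, which entered no class, held 53 Il34 UMIs. Smooth muscle cell-like cells held 48 UMIs at 86.6 CPM (63.9 to 115). Fibroblast-like cells held 18 UMIs at 34.5 CPM (20.4 to 54.5), and 17 of these were in the 21 cells of cluster 20, with Dcn, Slc6a13 and Aldh1a2, at 201 CPM (117 to 321), against 1 UMI in the 75 cells of cluster 14. The 66 neuron-like cells had 2 UMIs (6.29 CPM, 0.761 to 22.7), too few to place the known neuronal source. The pericyte markers themselves stood at 27.0% of the pericyte-like level in smooth muscle cell-like cells, where Il34 stood at 49.2%. In oligodendrocyte-like and microglia-like cells Il34 was at 0.216% and 0.450% and the pericyte markers at 0.240% and 0.373%. With each cell named by its own markers the class had 76 cells and 256 CPM.

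Carcinoma-like cells held 938 of the 1124 Il34 UMIs of the titled positive library (83.5%, against 69.2% of all its UMIs). Their level was 14.4 CPM (13.5 to 15.3), with a UMI in 13.6% of cells, below the 44.1 CPM (30.7 to 61.3) of endothelial cell-like cells. Fibroblast-like cells there had 39.5 CPM (25.8 to 57.9), again from cluster 20, whose 14 cells held 24 of the 26 UMIs at 228 CPM (146 to 339). The 44 cells of cluster 30, with high Col1a1 and Col1a2, had 2 UMIs. The intervals of cluster 20 in the libraries overlapped. Among carcinoma-like cells Il34 was lowest in cluster 27 (8.61 CPM, 6.55 to 11.1) and highest in cluster 29 (17.4 CPM). Il34 overlaps 2 antisense genes on the opposite strand, and Csf2 overlaps 1. The strand setting of the counting is not given in the sources used here, so reads of these partners cannot be told apart.

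The receptors lay mostly in myeloid cells, and Csf1r most of all in microglia-like cells. In the titled control library its level was 4451 CPM (4407 to 4495; 99.8% of cells with a UMI) in microglia-like cells and 1094 CPM (1035 to 1156; 95.5%) in monocyte or macrophage-like cells. The titled positive values were 1697 CPM (1655 to 1740; 99.5% of cells) and 561 CPM (549 to 574; 89.7%). The order microglia-like above monocyte or macrophage-like was found in both libraries with no overlap of the intervals. Dendritic cell-like cells had 46.4 CPM (21.2 to 88.1) and neutrophil-like cells 70.2 CPM (59.7 to 82.0), against 22.0 CPM (20.9 to 23.2) in carcinoma-like cells.

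Csf1r UMIs also appeared in brain cells that should lack the gene, for instance in 29.4% of titled control oligodendrocyte-like cells (55.7 CPM, median 6166.5 UMIs against 3236 in microglia-like cells). There Csf1r stood at 1.25% of the microglia-like level and the 10 summed microglia markers at 1.497%. The same measures were 2.73% and 3.14% in astrocyte-like cells, 1.75% and 1.93% in endothelial cell-like cells, 8.83% and 9.52% in neuron-like cells and 6.22% and 6.88% in pericyte-like cells. Of the 195 Csf1r UMIs of pericyte-like cells, 144 came from the 11 cells of sub-cluster 10.4, all of which had Csf1r. Microglia ranked second there, with a mean log2 marker ratio of 4.41 against 5.95 for pericyte. All 10 microglia markers were detected in that sub-cluster. In monocyte or macrophage-like cells Csf1r stood at 24.6% and the microglia markers at 11.01%, so Csf1r there was above the ratio seen in the brain cells. Csf1r overlaps Hmgxb3 on the opposite strand, whose reads cannot be told apart without the strand setting.

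**Figure D4:**
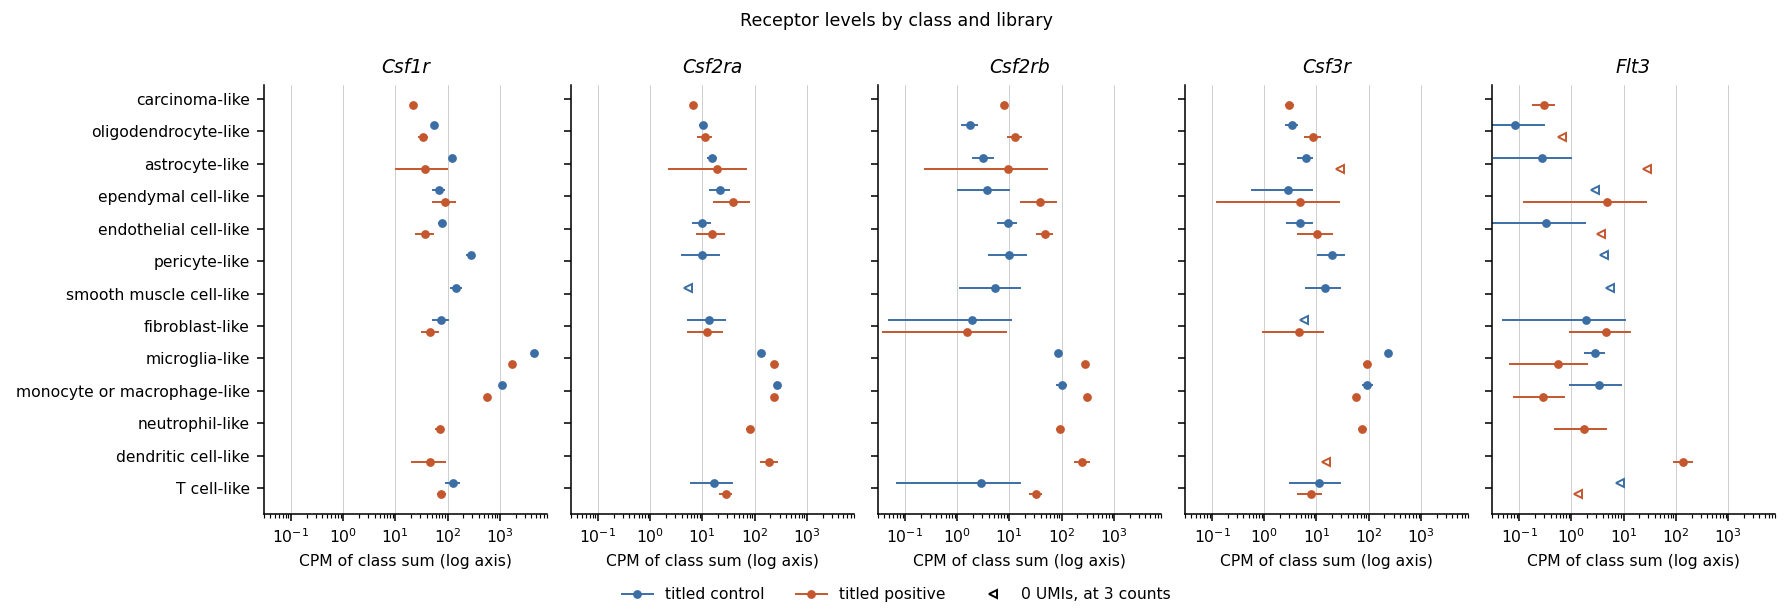
UMIs of the 5 receptors in CPM of the class sum (log axis), blue for the titled control and orange for the titled positive library. Classes with at least 20 cells are drawn, except neuron-like and choroid plexus cell-like cells, which were left out. Bars are 95% Poisson intervals and open triangles mark 0 UMIs, drawn at the level of 3 counts. Csf1r peaks in microglia-like cells (4451 and 1697 CPM), Csf2ra and Csf2rb in myeloid classes, and Flt3 in dendritic cell-like cells (139 CPM).

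Csf3r, the G-CSF receptor, had its highest level not in neutrophil-like but in titled control microglia-like cells, with 229 CPM (220 to 240). A Csf3r UMI was found in 51.5% of them. Among titled positive classes, microglia-like cells had 91.3 CPM (81.7 to 102), neutrophil-like cells 75.1 CPM (64.2 to 87.3; 37.5% of cells) and monocyte or macrophage-like cells 56.3 CPM (52.4 to 60.4). The first 2 of these had overlapping intervals. Their order turned with the summary: the mean of per-cell CPM in neutrophil-like cells was 115. The summed carcinoma markers were at 49.3% of their carcinoma-like value in those neutrophil-like cells and at 10.9% in the microglia-like cells, and the part of this RNA in the receptor level was not tested. Carcinoma-like cells, the main holders of Csf3, had 3.04 CPM of Csf3r (2.63 to 3.49). Titled control oligodendrocyte-like cells had 3.33 CPM, which is 1.45% of the microglia-like level where the microglia markers stood at 1.497%.

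The GM-CSF receptor chains spread over all myeloid classes. Csf2ra, the alpha chain, was 273 CPM (243 to 305) in titled control monocyte or macrophage-like cells and 132 CPM (125 to 140) in microglia-like cells. It was 230 CPM (222 to 238) and 233 CPM (218 to 250) in the titled positive classes. Csf2rb, the shared beta chain, was 99.5 CPM (82.2 to 119) and 86.1 CPM (80.1 to 92.4) in these titled control classes. It was 300 CPM (291 to 309) and 274 CPM (258 to 292) in the titled positive ones. Neutrophil-like cells there had 82.2 CPM of Csf2ra (130 CPM with each cell named by its own markers) and 93.3 CPM of Csf2rb, and dendritic cell-like cells 191 and 248 CPM. The highest Csf2rb level of a group with at least 50 cells was 468 CPM (388 to 560) in sub-cluster 19.5, 51 titled positive cells led by Ifitm1, Ccl17, Il1r2 and MHC class II genes that received no class name.

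Cells with UMIs of both chains, which the working receptor needs, were 8.03% of titled control (6.97 to 9.20%) and 49.5% of titled positive microglia-like cells (45.5 to 53.4%). In monocyte or macrophage-like cells they were 19.5% (14.5 to 25.4%) and 50.7% (48.6 to 52.8%), in neutrophil-like cells 26.3%, and in carcinoma-like cells 0.713%. Median depth also differed, at 3236 and 4911 UMIs in microglia-like cells. Thinned to 1000 UMIs, Csf2rb was found in 7.74% and 23.8% of microglia-like cells and Csf2ra in 11.6% and 20.7%. In titled control microglia-like cells Csf2rb was found in 25.1% of cells with Csf2ra and 21.6% of cells without it.

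Flt3 marked small groups of antigen-presenting cells. The 39 titled positive dendritic cell-like cells had 27 UMIs (139 CPM, 91.8 to 203; 35.9% of cells), and at clustering resolution 2 the class had 1 cell. In the titled control library 40 of 81 Flt3 UMIs lay in 65 cells without a class name. These were sub-cluster 19.2, with Xcr1, Plbd1 and MHC class II genes, at 163 CPM (97.9 to 254), and sub-cluster 19.0, with Cd209a, Mgl2 and MHC class II genes, at 76.1 CPM (47.1 to 116). Sub-cluster 19.5 of the titled positive library had 66.3 CPM (38.6 to 106). Microglia-like cells had 25 UMIs in the titled control library (2.83 CPM) and 2 in the titled positive library. The ligand gene Flt3l, not among the 9, was 36.4 CPM (19.4 to 62.2) and 43.1 CPM (34.9 to 52.7) in T cell-like cells and 23.4 and 11.3 CPM in endothelial cell-like cells.

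Between the libraries the receptors of microglia-like cells went in opposite directions. Csf1r was 2.62-fold lower in the titled positive library (log2 ratio -1.39, interval -1.43 to -1.35) and Csf3r 2.51-fold lower (-1.33, -1.50 to -1.16). Csf2rb was 3.19-fold higher (1.67, 1.53 to 1.81) and Csf2ra 1.77-fold higher (0.82, 0.69 to 0.95). Csf2rb2, which encodes a close copy of Csf2rb that serves interleukin 3, was 32.2 and 129 CPM (log2 ratio 1.99, 1.78 to 2.21). The longest transcripts of Csf2rb and Csf2rb2 shared 90.7% of aligned bases and 83.1% over the last 500 bases, so some reads could be assigned to the wrong copy. Csf1 was 19.7 and 32.8 CPM (0.74, 0.39 to 1.08), and its log2 ratio was 1.18 with each cell named by its own markers.

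The microglia-like classes of the libraries rest on different clusters. Cluster 3 held 2322 of the titled control cells and was led by P2ry12, Gpr34, Cx3cr1 and Siglech, and cluster 4, with Mki67, held 42. Cluster 25 held all 647 titled positive cells and was led by Ccl12, Saa3 and C1qc, with a microglia marker score of 1.95 and a monocyte or macrophage score of 1.66. All 10 microglia markers had UMIs there, the rarest in 2.47% of cells. Summed, these markers were 30339 CPM in the titled control class and 4974 CPM in the titled positive class. With each cell named by its own markers the titled positive class had 157 cells, and the log2 ratio of Csf1r was -1.18.

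A gene was counted as past the fold when it differed at least 2-fold and had at least 20 UMIs in the 2 class sums together. Of the 7 members so compared in microglia-like cells, 2 were past it upward, Csf2rb and Csf3, and 3 downward, Csf1r, Csf3r and Flt3. Over all 12496 genes compared in that class 10.2% were past the fold upward and 25.3% downward. The median log2 ratio of genes with at least 50 UMIs in both sums was -0.13, and relative to it Csf1r was at -1.26 and Csf2rb at 1.80. Csf3 had 0 and 62 UMIs, at least 50.4-fold higher against 3 counts, with the carcinoma markers of the same cells as given above. Flt3 rested on 25 and 2 UMIs, and its log2 ratio of -2.06 was -0.06 with each cell named by its own markers.

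**Figure D5:**
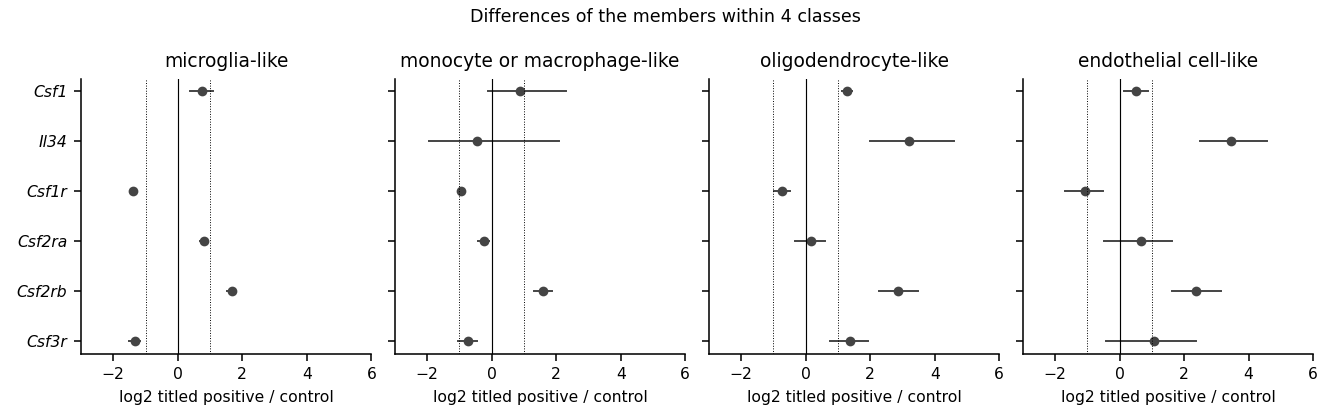
Log2 ratio of titled positive over titled control for 6 members in 4 classes with at least 50 cells in each library; points are ratios, bars 95% conditional binomial intervals, dotted lines 2-fold, and members with under 20 UMIs are left out. Csf2rb is above 1 in all 4 panels (1.67 in microglia-like, 2.37 in endothelial cell-like cells). In monocyte or macrophage-like cells it falls to between 0.90 and 0.96 under 3 other settings. Csf1r is below 0 in the 4 panels. In 2 of them the subtraction of free RNA takes away all titled control Csf1r, so its ratio above 0 there is against the pseudocount alone.

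In monocyte or macrophage-like cells Csf2rb was 3.002-fold higher in the titled positive library (log2 ratio 1.59, 1.32 to 1.87), from 115 and 4168 UMIs. This class is the least settled of the 4: the titled control cells were mostly cluster 9 (213 cells, with Mrc1, Pf4 and Ms4a7) and the titled positive cells cluster 16 (2231 cells, with Arg1, Chil3 and Ccl8). With doublets kept, with at most 10% mitochondrial UMIs, or with another random seed of the clustering, the last chosen after seeing the data, the titled control class had 83, 84 and 85 cells. The log2 ratio of Csf2rb was then 0.90, 0.94 and 0.96, under 2-fold. It was 1.60 at resolution 2 and 1.34 with each cell named by its own markers.

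The other members of the class moved with the same choice. Csf2ra was near equal (-0.25, -0.41 to -0.07), Csf3r lower by less than 2-fold (-0.75, -1.04 to -0.44) and Csf1r just short of 2-fold lower (-0.96, -1.05 to -0.88). With another seed these log2 ratios were -0.77, -1.28 and -0.48. Csf1 was 6.06 and 11.9 CPM with an interval that includes 0 (0.88, -0.10 to 2.31), and 3.30 with another seed. Csf3 was 2.12 from 4 and 234 UMIs, with all 4 in 1 cell, and 0.64 with another seed. Csf2rb2 was 13.9 and 120 CPM (3.07, 2.41 to 3.92). Of the 7 members compared, Csf2rb and Csf3 were past 2-fold upward and 0 downward, where 12.3% and 18.4% of 12188 genes were.

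In oligodendrocyte-like cells Csf1 was 2.45-fold higher in the titled positive library (log2 ratio 1.29, 1.14 to 1.44), and between 1.19 and 1.48 under every alternative run. The titled positive cells were cluster 28, led by Apod, Serpina3n and Klk6, against 60.6 CPM in the Klk6-led titled control cluster 5 and 36.6 CPM in cluster 2. Csf2rb was 1.73 and 12.6 CPM (2.86, 2.26 to 3.48), Csf3r 3.33 and 8.55 CPM (1.37, 0.76 to 1.94) and Csf1r 55.7 and 33.7 CPM (-0.72, -0.98 to -0.48). Subtracting 10% free RNA gave 9.80 for Csf1r, but it took away all titled control Csf1r of these cells. That value is against the pseudocount alone and gives no direction. Csf3r stood at 15.2% of the titled positive monocyte or macrophage-like level, and genes of maturing neutrophils were higher in the same cells, with S100a8 at 20.03 and 383 CPM; their part in it was not tested. In the titled positive cells Csf2rb stood at 4.20% and Csf2ra at 4.88% of the monocyte or macrophage-like level, where the summed macrophage markers stood at 3.96%. Il34 rested on 9 and 16 UMIs (3.21, 1.98 to 4.61) and stood at 25.0% of the carcinoma-like level, beside carcinoma markers at 10.7%. Csf3 had 0 and 60 UMIs, at least 107-fold higher against 3 counts, at 9.32% of the carcinoma-like level. Of 7 members compared 5 were past 2-fold upward (Csf1, Il34, Csf2rb, Csf3 and Csf3r) and 0 downward, against 14.9% and 17.1% of 13569 genes.

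In endothelial cell-like cells Csf1 was 76.1 and 108 CPM (log2 ratio 0.51, 0.13 to 0.87), and 1.21 by the mean of per-cell CPM. Il34 was 3.95 CPM in the titled control class and 44.1 CPM in the titled positive one (3.44, 2.50 to 4.56), from 12 and 35 UMIs, and stood at 307% of the carcinoma-like level there. Its ratio was 1.52 at resolution 2. In the titled control class Il34 stood at 2.25% of the pericyte-like level, beside summed pericyte markers at 2.75%. No pericyte-like class was named in the titled positive library. Pdgfrb, among the 8 pericyte markers, was 12.2 and 36.5 CPM in endothelial cell-like cells (1.59, 0.83 to 2.32). The part of pericyte RNA in the Il34 level was not tested. Csf2rb was 9.22 and 47.9 CPM (2.37, 1.63 to 3.13), Csf2rb2 11.9 and 26.4 CPM (1.17, 0.31 to 1.97) and Csf1r 77.7 and 36.5 CPM (-1.07, -1.70 to -0.53). Csf2rb stood at 15.9% of the titled positive monocyte or macrophage-like level, where the macrophage markers stood at 12.5% summed and 4.77% by their median, and the part of macrophage RNA in it was not tested. Of 6 members compared 3 were past 2-fold upward (Il34, Csf2rb and Csf3r) and Csf1r downward, against 7.7% and 16.1% of 10448 genes. The last 2 calls were narrow: Csf3r (1.07, -0.42 to 2.36) rested on 15 and 8 UMIs and was -0.75 with doublets kept. Csf1r was -0.95 with another seed and -2.81 with doublets kept. With 10% free RNA subtracted it was 7.09, but this took away all titled control Csf1r of the class. That value is against the pseudocount alone and gives no direction. The class had 536 and 101 cells.

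T cell-like cells (88 and 293) had Csf1 at 11.2 and 41.8 CPM (log2 ratio 1.74, 0.49 to 3.81) from 4 and 92 UMIs (4.57 at resolution 2), and Csf2rb at 32.2 CPM in the titled positive class, from 1 and 71 UMIs. In the titled positive cells the carcinoma markers reached 40.7% of their carcinoma-like sum, beside 96.1% for Csf1, and the macrophage markers 12.3% of their macrophage-like sum, beside 10.7% for Csf2rb. In fibroblast-like cells Il34 was 34.5 and 39.5 CPM (0.18, -0.73 to 1.15), but its log2 ratio was 3.54 with at most 10% mitochondrial UMIs. Csf1 was 23.0 and 44.0 CPM there (0.90, -0.08 to 2.04).

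Lists of pathway genes are given beside the shares over all genes compared in the class, and nothing particular to a list is read from them. In monocyte or macrophage-like cells 6 of 11 compared genes known to respond to GM-CSF were past 2-fold upward and 1 downward (median log2 ratio 1.51), against 12.3% and 18.4% of all genes compared (median -0.20). Mmp12, a macrophage elastase, was 1.73 and 126 CPM, Socs2, a feedback inhibitor of cytokine receptors, 4.33 and 97.9 CPM, and Cish, another such inhibitor, 0 and 16.8 CPM, and Cd209a was 39.0 and 0.216 CPM. In microglia-like cells 5 of 10 were past it upward and 1 downward (median 0.91), against 10.2% and 25.3% of all genes (median -0.36). Pim1, a kinase induced by cytokine receptors, was 10.3 and 168 CPM there and Osm, a cytokine, 65.8 and 237 CPM, while Irf4 was 4.41 and 0.276 CPM. In oligodendrocyte-like cells 5 of 7 were upward and 0 downward (median 3.10), against 14.9% and 17.1% of all genes (median -0.20), with Pim1 at 0.253 and 14.6 CPM.

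Of 15 receptor signalling genes, 2 were past 2-fold upward and 1 downward in microglia-like cells (median -0.11) and 3 and 2 in monocyte or macrophage-like cells (median -0.28). In microglia-like cells 10.2% of all genes were upward and 25.3% downward, and in monocyte or macrophage-like cells 12.3% and 18.4%. In oligodendrocyte-like cells 8 were upward and 0 downward (median 1.10), where 14.9% and 17.1% of all genes were, with Socs3, a feedback inhibitor of cytokine receptors, at 6.96 and 122 CPM. Pik3cg, a leukocyte lipid kinase, was 123 and 32.8 CPM in microglia-like cells and 58.9 and 23.5 CPM in monocyte or macrophage-like cells. Among myeloid transcription factors Id2 was 366 and 850 CPM and Maf 356 and 55.2 CPM in microglia-like cells, with 2 of 9 upward and 3 downward (median -0.41). Id2 was 162 and 783 CPM and Maf 477 and 89.7 CPM in monocyte or macrophage-like cells, with 3 of 9 upward and 1 downward (median 0.50).

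Genes of maturing neutrophils, the cells that G-CSF calls forth, were past 2-fold upward also in classes other than neutrophil-like cells. All 9 compared were so in microglia-like (median 3.67) and in oligodendrocyte-like cells (median 4.26), all 7 in endothelial cell-like cells (median 8.001) and 10 of 11 in monocyte or macrophage-like cells (median 3.73). Over all genes the upward shares in these classes were 10.2%, 14.9%, 7.7% and 12.3%, and the medians -0.36, -0.20, -0.20 and -0.20. S100a8 was 20.03 and 383 CPM in oligodendrocyte-like cells, 31.9 and 406 CPM in microglia-like cells and 16.1 and 4559 CPM in endothelial cell-like cells. The neutrophil-like cells themselves numbered 11 and 259. S100a8 was 32.0 and 1442 CPM in monocyte or macrophage-like cells, and Ltf was among the leading genes of carcinoma-like cluster 27. Most genes of this list are also among the 10 markers that named the neutrophil-like class. Those markers summed to 134165 CPM in the titled positive neutrophil-like cells. The part of free neutrophil RNA in the other classes was not tested. Of the related ligands and receptors, Il3ra, the alpha chain of the interleukin 3 receptor, was 4.07 and 18.8 CPM in microglia-like cells, and Ptprz1, a phosphatase known to bind interleukin 34, 40.1 and 1.10 CPM, in a library with 21 astrocyte-like cells against 1913. Kitl, the ligand of the receptor Kit, was 322 and 90.7 CPM in endothelial cell-like cells.

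By a fixed rule the 3 genes most like each member were found over 19 class sums, with Pearson's r of log2(CPM + 1) among 12594 candidates. Class sums of a library share free RNA and depth, so r is a description. By Spearman's rank correlation most of the 3 genes stayed for 4 members. For the other 5 (Csf2, Csf2ra, Csf3, Csf3r and Flt3) most changed. Csf3r then had Cd86, Tnfrsf13b and Ctss, and Csf2ra had Relt, Dapp1 and Cotl1. The genes named below are those by Pearson's r. Csf1r went most closely with Trem2, a microglial lipid receptor (r = 0.99), Fgd2 and Hpgds, and Csf2rb with Cd14, the lipopolysaccharide co-receptor (0.95), Cd33 and Alox5ap. Csf3r was nearest to Tlr7, a sensor of single-stranded RNA (0.92), Plcb2 and Lpcat2, and Csf2ra to Nlrp3, an inflammasome sensor (0.89), Card9 and B430306N03Rik. Csf3 followed 3300005D01Rik (0.99), Lad1 and Rps6-ps1, and Csf2 followed Kdf1 (0.90), Csn3 and Wdr43. Il34 was most like Ano1 (0.89), a chloride channel, Foxc1, a factor of mural and meningeal cells, and Perp. Csf1 had the weaker matches Larp1b (0.79), Psmc3 and Rtca, and Flt3 had C430049B03Rik (0.77), Igf1 and Angptl7.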

How the data were processed

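Raw UMI counts per gene and cell barcode were deposited for single-cell RNA of brain tissue, captured on a Singleron GEXSCOPE chip per the labels' protocols. Cell Ranger (no version) and GRCm38 are named in the submitters' processing notes. Annotation release, cell calling and strand setting were not given in the sources used here. In all, the libraries held 55657687 UMIs in 10417 barcodes (titled control, median 4230) and 98141261 in 10842 (titled positive, median 7383.5); the lowest barcodes had 2270 and 3160 UMIs.

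Barcodes under 200 genes or above 20% mitochondrial UMIs were left out (11 and 5), as were doublets called by the Scrublet method of scanpy 1.11.5 (600 and 300). Clustering alone used counts scaled to 10000 a cell on a log scale (2000 variable genes without the members, 30 components, 15 neighbours, Leiden resolution 1, in double precision with rounded components; mixed clusters were split at 0.5). Clusters were named from markers of 23 cell types, where the mean log2 marker ratio reached 1.5 with 3 or more markers detected; thresholds and the rule for mixed clusters were set with clusters in view. Mixed clusters (423 and 30 cells) and unnamed ones (65 and 53) entered no class. UMIs were summed per class and library in Python 3.11.15, as CPM with exact Poisson 95% intervals; shares of cells have exact Clopper-Pearson intervals. Ratios used a pseudocount of 0.5 counts and conditional exact binomial intervals, in 6 classes with at least 50 cells in each library. The ratio and its interval were tested on simulated data. Intervals cover counting error only, and a count of 0 was read against a floor of 3 counts. Coordinates came from GENCODE M21 on GRCm38.

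All 9 members are named; from each of 5 pathway lists at most the 3 highest and 3 lowest genes per class; and for members with at least 100 UMIs the 3 genes most alike, among genes with at least 20 CPM in a class sum that are neither members nor markers. The members and lists were chosen with earlier results of these data known. Alternatives kept doublets or named each cell by its own markers. Others changed the resolution, the mitochondrial limit, the scaling, the pseudocount, the UMI minimum, the free RNA or the kind of correlation. Another seed of the clustering was added after seeing the data.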

Additional observations from a re-analysis of the deposited data

Results flagged for a closer look

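These are differences of opposite sign between 2 classes under the same contrast, each from 1 library per group and none of them tested. Csf2ra had a log2 ratio of titled positive over titled control of 0.82 in microglia-like cells (132 and 233 CPM) and of -0.25 in monocyte or macrophage-like cells (273 and 230 CPM), a gap of 1.07. Csf3r was higher in titled positive oligodendrocyte-like cells (1.37, at 3.33 and 8.55 CPM) and lower in microglia-like cells (-1.33), a gap of 2.70. Against monocyte or macrophage-like cells (-0.75) the gap for Csf3r in oligodendrocyte-like cells was 2.12. The oligodendrocyte-like values of Csf3r rest on 79 and 38 UMIs. In these cells 9 of 9 compared genes of maturing neutrophils were also higher by at least 2-fold (median log2 ratio 4.26), and Csf3r stood at 15.2% of the titled positive monocyte or macrophage-like level where the macrophage markers stood at 3.96%; their part in the difference was not tested. The titled control monocyte or macrophage-like class changes with the clustering.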

How the results depend on the processing

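No paired analysis was possible because each group has 1 library. Of 133 recomputed levels 98 moved by less than their counting error and 35 by more. Of 351 recomputed log2 ratios 293 stayed within it, 55 moved and 3 reversed; all 19 shares moved on thinning. The 3 reversed ratios were of Csf1r with 10% free RNA subtracted, in T cell-like (0.66), endothelial cell-like (7.09) and oligodendrocyte-like cells (9.80). The titled control levels of the endothelial cell-like and oligodendrocyte-like cells (77.7 and 55.7 CPM) were below 10% of that library's 899.6 CPM. All titled control Csf1r was thus taken away there, and these ratios are against the pseudocount alone. The subtraction gave 149 CPM for Csf3 in carcinoma-like cells and 4846 CPM for Csf1r in titled control microglia-like cells. The mean of per-cell CPM gave 149.8 and 4610 CPM. Csf1r there was 4583 CPM with at most 10% mitochondrial UMIs. With each cell named by its own markers it was 4541 CPM, and Il34 in pericyte-like cells was 256 CPM. The log2 ratio of Csf1r in microglia-like cells was then -1.18; it was -1.52 with doublets kept, -1.43 with at most 10% mitochondrial UMIs and -1.26 scaled to the median gene. Csf2rb in monocyte or macrophage-like cells fell under 2-fold with doublets kept (0.90), with at most 10% mitochondrial UMIs (0.94) and with another seed (0.96, chosen after seeing the data), where the titled control class has fewer cells. Csf1 in oligodendrocyte-like cells was 1.48 scaled to the median gene. Where no cause is given, the cause was not tested.

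Requiring 100 UMIs left fewer genes to count as past 2-fold, 712 upward and 1805 downward in microglia-like, 911 and 963 in monocyte or macrophage-like, 896 and 1493 in oligodendrocyte-like and 280 and 659 in endothelial cell-like cells (main counts 1279 and 3159, 1500 and 2244, 2018 and 2321, 804 and 1686). A pseudocount of 5 gave 544 upward and 3709 downward in monocyte or macrophage-like, 1240 downward in oligodendrocyte-like and 598 downward in endothelial cell-like cells.

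The limits are 1 library per group, contradicting labels, classes that rest on different clusters in the libraries, and a titled positive library with carcinoma marker RNA in every class compared.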
